A study of Mus musculus with 1457 samples.

Results

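The mural and mesenchymal identity genes are 36 genes that mark the muscle-like and connective-tissue cells of the vessel wall, taken by name from the 36131 genes that both count tables hold whole. All 36 were found. They comprise 15 contractile genes, 6 pericyte genes, 3 genes of platelet-derived growth factor (PDGF) signalling and 12 stromal genes. They were followed through 19 sorts, 1457 cells in all, of the mouse aorta-gonad-mesonephros region, profiled by Smart-seq2, a method that copies full-length mRNA of a cell sorted into its own well.

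Mural cells wrap the endothelial tube of a vessel. Smooth muscle cells of large vessels build actin and myosin filaments under the control of serum response factor and its partner myocardin, whereas pericytes depend on PDGF-B released by endothelium and read by the receptor PDGFRB. Fibroblast-like stromal cells of the embryo carry PDGFRA and lay down collagens and small proteoglycans. In this region the mesenchyme under the aorta lies next to the hemogenic endothelium (HE), from which blood stem cells emerge.

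All embryos were ICR. Endothelial sorts (Endo) took CDH5+ cells without KIT, CD41, CD45, TER119 or the reporter, and HE sorts took such cells with a GFI1 or RUNX1b reporter. The Gfi1/Gfi1b line (Gfi1:Tomato/WT Gfi1b:GFP/WT) gave Endo and HE cells at E10.5 (74 and 95 cells) and E11.5 (16 and 40 cells). From it also came cells of the endothelial-to-hematopoietic transition (EHT), sorted as CD41+KIT+CDH5+GFI1+GFI1b- (41 at E10.5), and cells of intra-aortic hematopoietic clusters (IAHC), which carry GFI1b as well (42 at E10.5 and 22 at E11.5). HE cells of Gfi1:Tomato/Tomato Gfi1b:GFP/GFP embryos (Gfi1/Gfi1b KO) numbered 42, at E10.5. The Runx1b line at E10.5 gave 53 Endo cells, an HE sort with 17.98% of all cells and a mesenchymal sort (Mes, CDH5-RUNX1b+) with 7.34% of all cells, all Runx1b:RFP/WT. A second mesenchymal sort of 91 cells came from Runx1b:RFP/RFP embryos (Mes KO). By their gate both Mes sorts hold only CDH5- cells with the reporter. A further line (Gfi1:Tomato/WT, E10.5) was sorted on angiotensin-converting enzyme into ACE-GFI1- Endo (14 cells), ACE+GFI1- SinglePos (7.96% of all cells) and ACE+GFI1+ DoublePos (39 cells).

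Labels disagreed for some cells. A further Runx1b HE sort, 19.01% of all cells, is titled KO although its genotype field reads Runx1b:RFP/WT, and is called titled KO here. In the Gfi1/Gfi1b line, 41 Endo, 43 HE and 42 EHT cells carry E11.5 in the title but E10.5 in their stage field, and are kept apart as titled E11.5. No label names an embryo, so each sort is 1 sample: its reads were summed and divided by the sort's total to give CPM, reads scaled to a total of 1e+06, and a single sort set against another has no replicate check. Reads per cell ran from 12 to 5652968 (median 598000). Runx1 stood at 35.3 CPM in Mes, 20.1 in Mes KO, 17.8 in Runx1b HE, 2.71 in Runx1b Endo and 1.47 in titled KO. Gfi1 stood at 218.9 CPM in the HE sort labelled Gfi1/Gfi1b KO and 55.2 in E10.5 HE, and Gfi1b at 91.6 and 52.1 CPM. Counts per gene do not show which part of a targeted gene was read, so these levels do not settle the labels.

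The gates were checked with 20 panendothelial genes. Their summed level was 11812 to 16189 CPM in the 4 Endo sorts whose labels did not conflict, 768 in Mes and 3241 in Mes KO, where 13 of 91 cells read at least 10 of the 20. In Runx1b HE, 50% of the cells read at least 10 of these genes and 50% read fewer, although CDH5 defined the gate. Results on that sort are therefore given with and without the cells that read fewer.

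Promoters of the 3 contractile genes with the highest level per length in Mes are shown because serum response factor binds a short motif, the CArG box, in many smooth muscle promoters. The box is a pair of C, 6 bases that are A or T, and a pair of G, and it reads the same on both strands. The sequences are RefSeq promoters of build GRCm38.p6, on the gene's strand, from 250 bases before to 50 bases after the RefSeq gene start. The GENCODE M21 annotation places the outermost start of Acta2, Actc1 and Myl9 further upstream, at 34255590, 114053548 and 156775420. Distances given here are to the RefSeq start. Capitals mark each full box and each box with 1 inner G or C.
Acta2 (chr19:34255324-34255623, minus strand): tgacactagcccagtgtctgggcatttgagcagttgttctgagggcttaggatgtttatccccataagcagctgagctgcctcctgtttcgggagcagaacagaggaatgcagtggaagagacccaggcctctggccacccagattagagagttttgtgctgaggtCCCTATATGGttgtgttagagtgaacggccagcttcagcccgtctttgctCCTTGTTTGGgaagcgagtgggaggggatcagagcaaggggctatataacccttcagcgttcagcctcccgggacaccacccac
Actc1 (chr2:114052826-114053125, minus strand): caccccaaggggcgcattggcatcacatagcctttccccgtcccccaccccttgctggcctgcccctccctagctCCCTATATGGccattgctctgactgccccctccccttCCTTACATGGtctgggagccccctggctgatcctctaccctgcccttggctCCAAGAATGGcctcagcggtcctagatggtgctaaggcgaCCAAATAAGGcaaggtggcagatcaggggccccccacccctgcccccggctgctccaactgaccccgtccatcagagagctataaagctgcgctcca
Myl9 (chr2:156775214-156775513, plus strand): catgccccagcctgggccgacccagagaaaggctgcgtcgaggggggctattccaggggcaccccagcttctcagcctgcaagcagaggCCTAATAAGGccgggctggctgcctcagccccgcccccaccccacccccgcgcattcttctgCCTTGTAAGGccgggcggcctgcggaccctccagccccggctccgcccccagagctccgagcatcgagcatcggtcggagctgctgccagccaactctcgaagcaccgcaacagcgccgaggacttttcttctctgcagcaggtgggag
The Acta2 window holds no full box, and its imperfect boxes start 84 and 34 bases before the gene start. The Actc1 window holds 1 full box, 47 bases before the start, and an imperfect box 87 bases before it, with others further upstream. In Myl9 the upstream box is full, and an imperfect one lies 99 bases before the start. RefSeq promoters were matched for 25 members (28 promoters). Of these, 2 promoters, Actc1 and Myl9, hold a full box (7.14%), against 1.63% of all 32851 promoters of the same length. With 1 inner G or C allowed, 4 member promoters hold a box (14.3%), the fourth being Tbx18, against 9.98% of all promoters. A match describes these letters and is not a binding site.

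Across the 19 sorts the genes formed 1 block of high levels. In 31 of 36 members the highest level lay in Runx1b HE, Mes or Mes KO, and in 28 members these sorts took the first 3 places. They were 14 of 15 contractile, 3 of 6 pericyte, 2 of 3 PDGF and 9 of 12 stromal genes. All 12 stromal genes were highest in a Mes sort, 6 in Mes and 6 in Mes KO. How many of all genes have their highest level in these sorts was not counted, so these counts describe the members only. At the other end, 6 members had at least 5 CPM in every sort: Mylk, Myl9, Smtn, Cald1, Tpm1 and Pdgfb.

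**Figure D1:**
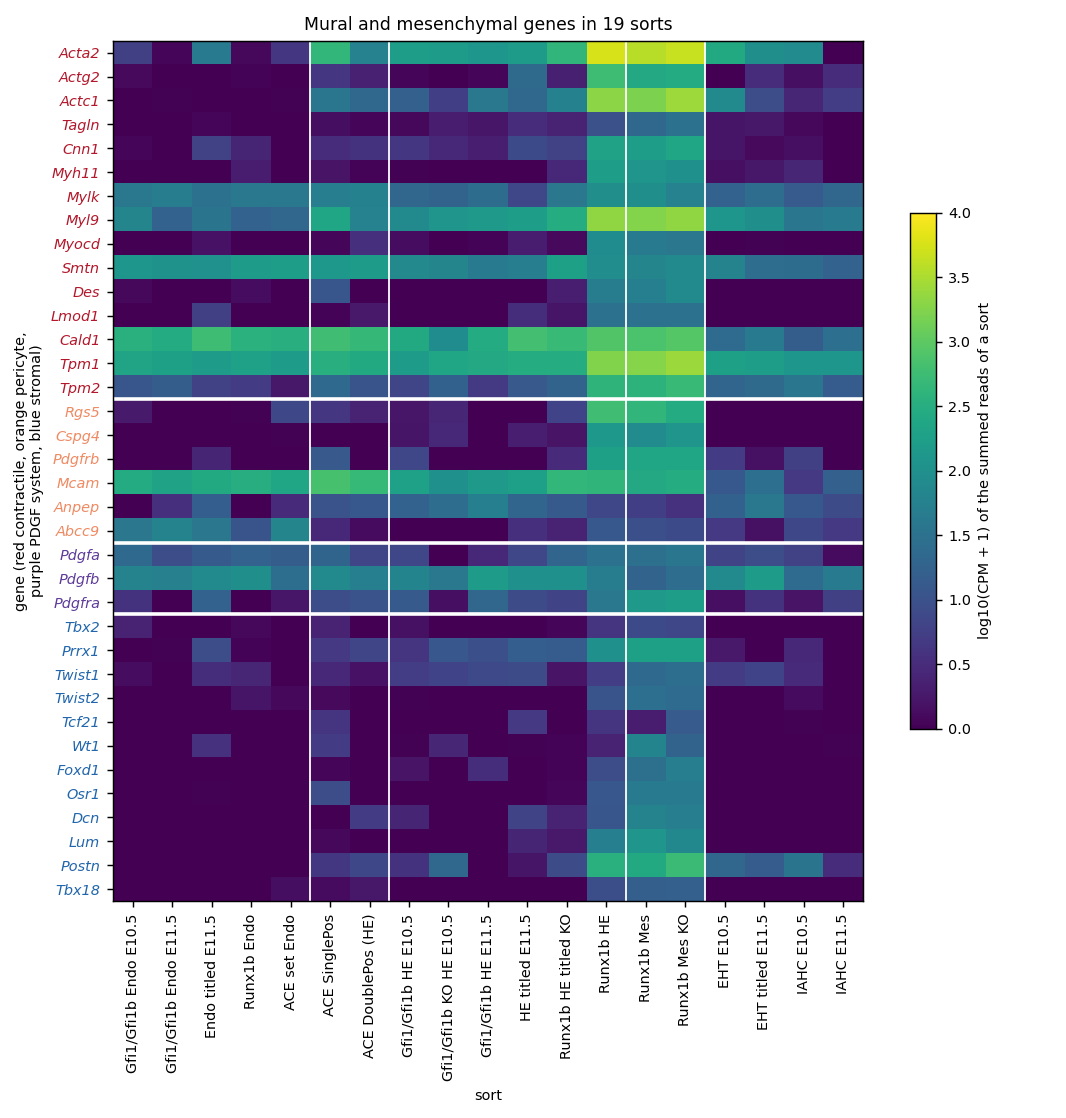
Level of each of the 36 genes (rows, by group) in the 19 sorts (columns), as log10(CPM + 1) of summed reads. Runx1b HE, Mes and Mes KO form the bright block: Acta2 stands at 5768, 3718 and 4674 CPM there and at 0.237 CPM in Runx1b Endo.

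Acta2 (chromosome 19, 34241090 to 34255590, minus strand, GRCm38), the smooth muscle alpha-actin, stood at 3718 CPM in Mes (exact Poisson interval 3703 to 3733), 4674 in Mes KO and 5768 in Runx1b HE. Elsewhere it ran from 0.0232 CPM in E11.5 IAHC to 452 in ACE SinglePos, and in Runx1b Endo only 7 reads were found. The 3 high sorts thus lay above every other sort, and an HE gate led them.

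Per kilobase of exon, Acta2 was the highest member in Mes at 1693 CPM. Myl9, the regulatory light chain of smooth muscle myosin, followed at 1537 CPM per kilobase and Actc1, the cardiac alpha-actin, at 992. Tpm1, a tropomyosin, had 289.9 CPM per kilobase, Actg2, the enteric smooth muscle actin, 163.7, and the tropomyosin Tpm2 131.5. Myh11, the smooth muscle myosin heavy chain, had 15.8 and the coactivator Myocd 6.76. Acta2, Myl9 and Actc1 were the most abundant contractile RNAs on this scale. The actin genes share most of their coding sequence, so how reads were split among Acta2, Actc1 and Actg2 is uncertain.

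The contractile genes were not read in every Mes cell. Acta2 had a read in 56.1% of Mes cells (exact Clopper-Pearson interval 46.1 to 65.7%) and 62.6% of Mes KO cells, against 5.66% of Runx1b Endo cells. Median depths were 625872, 516636 and 629593 reads. Single Mes cells ran from 0 to 38426 CPM of Acta2 with a median of 2.56, so the sort mixes cells with very high and with no Acta2. In a summed level, fewer cells of a type and less RNA per cell cannot be told apart. Among genes of the contractile apparatus, Myl9 was read in 68.2% of Mes cells, Cnn1 (calponin) in 41.1%, Actc1 in 35.5%, Des (desmin, a muscle intermediate filament) in 32.7%, Lmod1 (a leiomodin, which nucleates actin filaments) in 24.3% and Myh11 in 20.6%.

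Cald1, Mylk and Smtn were well read in endothelium too. Cald1, which encodes the actin-binding caldesmon, stood at 747 CPM in Mes and 291.2 to 362 CPM in the 4 Endo sorts. Mylk, the myosin light chain kinase, stood at 97.3 CPM in Mes and 38.9 to 48.9 CPM in Endo. Smtn, which encodes smoothelin, was lower in Mes (65.2 CPM) and Mes KO (80.5 CPM) than in any of the 4 Endo sorts (109.05 to 176.6 CPM). Of Smtn exon bases, 17.2% overlap genes on the other strand, and the strand setting of the counting is not given in the sources used here.

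Tagln, which encodes the actin-binding transgelin, stood far below its partners, at 21.7 CPM in Mes and 8.94 CPM in Runx1b HE. It was read in 47.7% and 41.6% of those cells. Genes on the opposite strand, chiefly Pcsk7, overlap 67.9% of its exon bases, so its level is uncertain. The same limit touches Twist2 (46.5% of exon bases), Pdgfa (26.1%) and Tbx18 (20.6%).

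Of the pericyte genes, Rgs5, Pdgfrb and Cspg4 followed the block. Rgs5, a regulator of G-protein signalling, stood at 429, 283.3 and 599 CPM in Mes, Mes KO and Runx1b HE, and at 6.24 CPM or less elsewhere. Pdgfrb, the PDGF-B receptor, stood at 225.2, 232.5 and 186.3 CPM in the same order, and had 0 reads in the 4 Endo sorts. Cspg4, the NG2 proteoglycan, stood at 84.8, 120.97 and 133.7 CPM and at 1.91 CPM or less elsewhere.

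Mcam, Abcc9 and Anpep did not follow it. Mcam (CD146), an adhesion molecule of endothelium and mural cells, stood at 260.4 CPM in Mes and 204.3 to 309 CPM in the 4 Endo sorts, so its level did not separate the gates. Abcc9, a potassium channel subunit found in brain pericytes, was highest in Endo sorts, at 64.8, 60.1 and 37.3 CPM in the ACE, E11.5 and E10.5 sets, with 49.7% of the E11.5 reads from 1 cell (34.1 CPM without it). In the line of the Mes sorts it stood at 9.96 CPM in Runx1b Endo and 8.54 in Mes. Anpep, the aminopeptidase CD13, was highest in E11.5 HE (51.4 CPM) and titled E11.5 EHT (39.3 CPM) and stood at 4.44 CPM in Mes.

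The highest levels of the ligand gene Pdgfb and of the PDGF receptor genes lay in different sorts. Pdgfb, the endothelial ligand of mural cells, stood at 96.4 CPM in Runx1b Endo and 48.4 in Runx1b HE, and its lowest level of all 19 sorts was 17.5 CPM, in Mes. Pdgfra, the stromal receptor, stood at 141.7 CPM in Mes and 175.6 in Mes KO, and at 38.3 CPM or less elsewhere. Pdgfa, the main ligand of PDGFRA, was spread more evenly, from 0 CPM in the HE sort labelled Gfi1/Gfi1b KO to 35.8 CPM in Mes KO. Runx1b HE (31.3 CPM) and Mes (29.4 CPM) came next, so Pdgfa was highest in the same sorts as Pdgfra.

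Stromal matrix genes were led by Postn (periostin), at 268.99, 537 and 348 CPM in Mes, Mes KO and Runx1b HE and 33.1 CPM or less elsewhere. Lum (lumican) stood at 122.3, 72.9 and 51.99 CPM and Dcn (decorin) at 59.9, 50.96 and 10.8 CPM in the same order. Both proteoglycan genes were thus lower in the HE gate than in either Mes sort.

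Among stromal transcription factors Prrx1, a homeobox factor of limb and trunk mesenchyme, was highest, at 188.8, 186.4 and 102.4 CPM in Mes, Mes KO and Runx1b HE. Osr1 (42.1 CPM in Mes), Foxd1 (28.7), Twist2 (27.9), Twist1 (22.1) and Tbx18 (15.1) were each higher in both Mes sorts than in every other sort. The T-box repressor Tbx2 reached only 6.93 CPM in Mes. Tcf21, a factor of kidney and heart fibroblasts, stood at 13.2 CPM in Mes KO, with 61.6% of the reads from 1 cell, and at 1.08 CPM in Mes.

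Wt1, a zinc-finger factor of the coelomic lining, kidney and gonad, stood at 63.2 CPM in Mes, read in 16.8% of cells. In Mes KO it stood at 17.95 CPM and in Runx1b HE at 1.52 CPM. A list of 8 coelomic and gonadal markers, led by Gata4, summed to 135.6 CPM in Mes and 87.6 in Mes KO, with 1 marker at 0 in each, and the part of such cells in the Wt1 level was not tested.

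In the Runx1b HE gate the mural genes lay with the cells that read fewer than 10 panendothelial genes. Those cells stood at 10626 CPM of Acta2, 3825 of Myl9, 1112 of Rgs5, 646 of Postn and 336 of Pdgfrb. The cells with 10 or more stood at 208.6, 226.2, 11.1, 6.27 and 14.7 CPM of the same genes. Of all Acta2 reads in the sort, 98.3% came from the first kind of cell. Median depths were 595918 and 535980 reads.

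**Figure D2:**
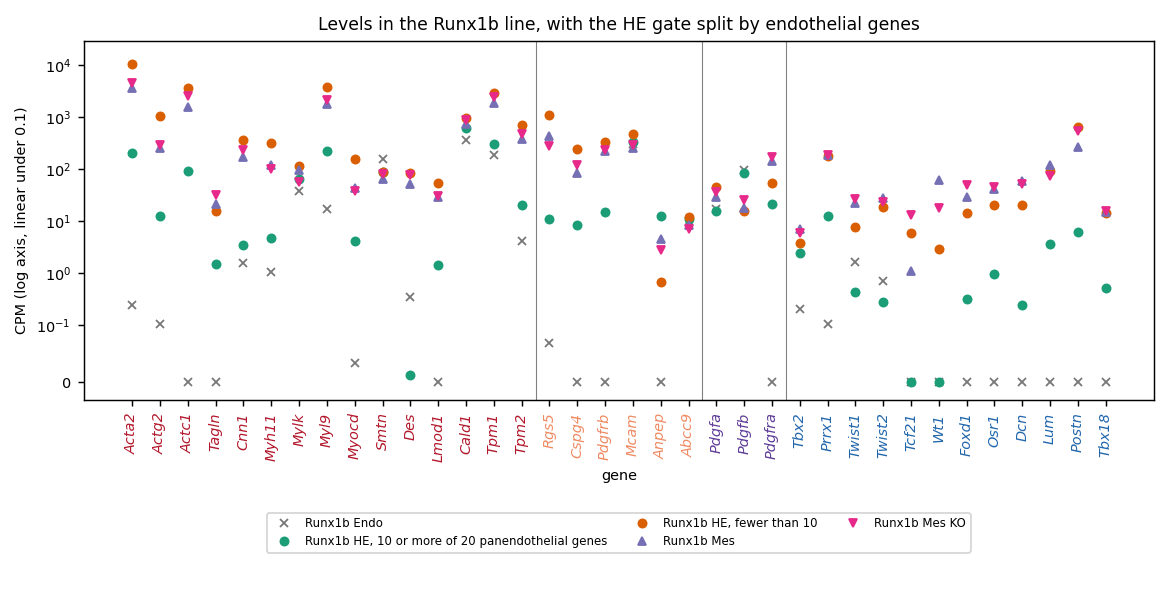
Level in CPM (log axis, linear under 0.1) of each gene in Endo, Mes and Mes KO of the Runx1b line and in the HE sort divided at 10 of 20 panendothelial genes. HE-gate cells with fewer than 10 lie with the Mes sorts for most genes, as for Acta2 at 10626 CPM, against 208.6 CPM in those with 10 or more.

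The same division appeared cell by cell. The count covered 11 contractile genes (Acta2, Actg2, Actc1, Tagln, Cnn1, Myh11, Myl9, Myocd, Des, Lmod1 and Tpm2), chosen after their levels were seen. Most are scarce in endothelium, but in the 4 Endo sorts Myl9 stood at 17.1 to 64.5 CPM and Tpm2 at 0.823 to 14.2 CPM. Of HE-gate cells with few endothelial genes, 69.5% read at least 8 of the 11. Of those with 10 or more endothelial genes, 1 cell did (0.763%). Among Mes and Mes KO cells with few endothelial genes and at least 50000 reads, the shares were 32.4% and 53.3%. In the HE gate, 19 cells with few endothelial genes read none of the 11, and all 19 had at least 1% of their reads in globin genes.

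**Figure D3:**
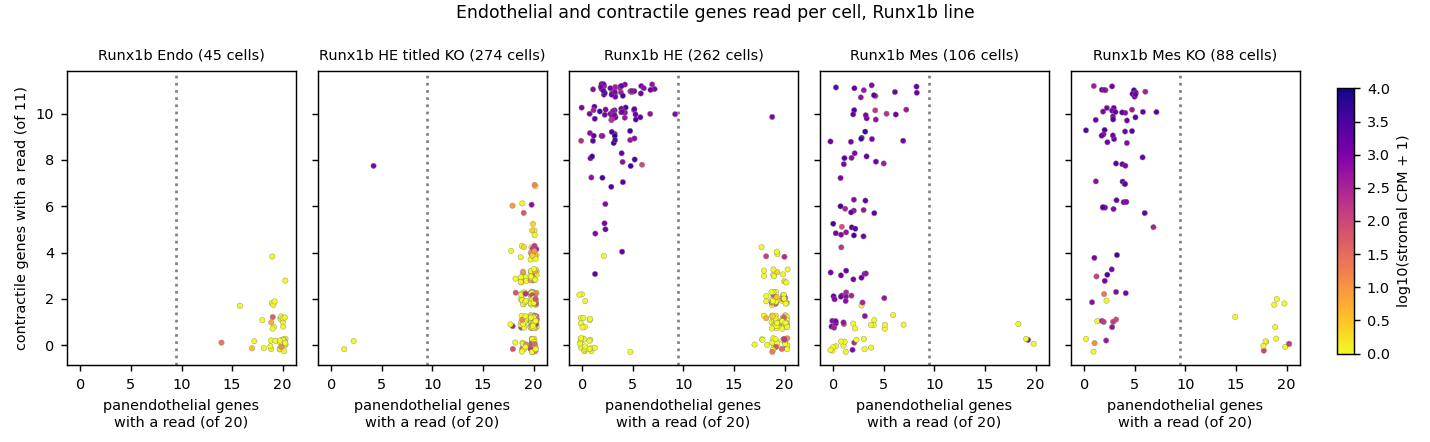
Each point is a cell of the Runx1b line with at least 50000 reads, placed by how many of 20 panendothelial genes (x) and 11 contractile genes (y) had a read, with small random offsets, coloured by log10(summed stromal CPM + 1); the dotted line marks 10 endothelial genes. In the HE sort, 91 cells left of the line read at least 8 contractile genes and 1 cell right of it does.

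Contractile and stromal genes differed in those HE-gate cells. With few endothelial genes, the 15 contractile genes summed to 25163 CPM, above Mes (10973) and Mes KO (14290). The 12 stromal genes summed to 1029 CPM, between Mes (847) and Mes KO (1046). Postn, at the level given above for these cells, made up most of that sum, and stood at 268.99 CPM in Mes and 537 in Mes KO. The sum therefore does not give the level of the other stromal genes. Pdgfra (53.3 CPM), Dcn (20.1), Twist1 (7.75) and Wt1 (2.85) were lower there than in either Mes sort, and Actc1 (3743), Myh11 (322), Rgs5 and Postn were higher.

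Against Runx1b Endo, 25 of 30 measured members stood at least 2-fold higher in Runx1b HE and 0 were lower. A gene counted as measured with at least 5 CPM and reads in at least 10% of cells in either sort, and sums under 3 reads were set to 3 reads. Here and in the comparisons of single sorts below, a gene scarce in either sort could be measured only through the other. It was then higher there by construction. Of all 10952 genes measured, 14.2% were at least 2-fold higher and 9.88% lower. The median log2 ratio was 6.99 for the members and -0.11 for all genes. With both sorts limited to cells with at least 10 panendothelial genes, 6 of 14 measured members stood at least 2-fold higher and 0 lower, against 14.1% and 10.8% of 10703 genes. Erythroid genes were higher in Runx1b HE in 9 of 9 measured, with all cells; their part was not tested.

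Mes against Runx1b Endo gave 28 of 33 measured members at least 2-fold higher and 2 lower, against 16.7% and 11.3% of 11177 genes. The lower genes were Pdgfb (17.5 and 96.4 CPM, log2 ratio -2.46) and Smtn (65.2 and 158.3 CPM, -1.28). All 10 measured stromal genes were higher, as the filter had fixed. In Runx1b Endo no stromal gene exceeded 1.66 CPM, so each was measured only through Mes. Markers of other cells moved in the same comparison: macrophage genes were higher in Mes in 9 of 9 measured (median log2 ratio 9.24), erythroid genes in 6 of 6 (12.54) and hematopoietic genes in 6 of 7 (6.75), and panendothelial genes were lower in 20 of 20 (-3.95). Their part in the members' ratios was not tested.

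Mes was tested against the HE gate over 4 sums of cells (Mes, Mes KO, Runx1b HE and titled KO). With all cells, the quasi-likelihood test of edgeR (Benjamini-Hochberg adjusted p under 0.05) called 0 members and 0% of 18488 genes. An unadjusted p under 0.05 was found for 5 of the 36 members and 2474 genes. Acta2 stood at 423 and 5768 CPM in the HE sums and 3718 and 4674 in the Mes sums, so the Mes values lay within the HE range (log2 difference 0.25 ± 1.20, edgeR adjusted p = 0.948). Pdgfra stood at 5.72 and 38.3 CPM in the HE sums and 141.7 and 175.6 in the Mes sums, without overlap (2.66 ± 0.97, edgeR adjusted p = 0.374). For 10 of 12 stromal genes both Mes sums lay above both HE sums, against 32.6% of the 18488 genes, and edgeR called none of the 10. DESeq2 called 6 of the 36 members, against 9% of the 18488 genes (542 higher and 1121 lower in Mes). Of the members, Wt1, Twist1, Dcn and Pdgfra were higher in Mes, and Pdgfb and Mcam lower.

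With the HE gate limited to cells with at least 10 panendothelial genes, 17 of 36 members passed the same test, against 4.31% of 17500 genes. Of the contractile genes 9 of 15 rose in Mes, with Acta2 (3.62 ± 0.43, edgeR adjusted p = 0.0308; ± is the standard error), Cnn1 (5.75 ± 0.27, edgeR adjusted p = 0.0189) and Myl9 (2.81 ± 0.24, edgeR adjusted p = 0.0218) among them. The others were Actc1, Lmod1, Myh11, Tagln, Tpm1 and Tpm2, with log2 differences of 2.74 to 5.08. Of the pericyte genes Rgs5 rose (5.47 ± 0.64, edgeR adjusted p = 0.0302), whereas Pdgfrb had 4.77 ± 1.31, edgeR adjusted p = 0.111 and Cspg4 4.52 ± 1.65, edgeR adjusted p = 0.195.

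Under that limit 6 of 12 stromal genes rose in Mes. They were Prrx1 (3.80 ± 0.18, edgeR adjusted p = 0.0189), Postn (5.89 ± 0.43, edgeR adjusted p = 0.0199), Twist1 (5.46), Osr1 (6.20), Dcn (5.81) and Wt1 (9.56 ± 1.40, edgeR adjusted p = 0.0421). Pdgfb fell in Mes (-2.25 ± 0.28, edgeR adjusted p = 0.0334), and Pdgfra missed the threshold (3.46 ± 0.68, edgeR adjusted p = 0.0635). The HE-gate cells kept here were chosen by their endothelial genes, which are not independent of their mural genes. In the tests of Mes against HE, a gene scarce in HE could pass the count filter only through Mes. Its direction was then set by construction. Even with all HE-gate cells, Wt1 stood at 0.075 and 1.52 CPM in the HE sums and Osr1 at 0.19 and 11.2.

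Between the Mes sorts few members differed by 2-fold. In Mes KO, 0 of 32 measured members stood at least 2-fold higher than in Mes and 1 was lower, against 6.56% and 5.31% of 11201 genes. The lower gene was Wt1 (17.95 against 63.2 CPM, log2 ratio -1.82), and Postn lay just under 2-fold higher (537 against 268.99 CPM). The sorts also differed in other cells. Macrophage genes summed to 630 CPM in Mes and 2.28 in Mes KO, where 8 of 10 were at 0, erythroid genes to 64247 and 6300, and panendothelial genes to 768 and 3241. Their part in these ratios was not tested.

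The titled KO sort was far lower in mural genes than Runx1b HE. Of 30 measured members 24 stood at least 2-fold lower and 3 higher, against 7.07% and 6.94% of 11030 genes. Actg2 stood at 1.28 against 572 CPM, Rgs5 at 5.43 against 599, and Pdgfrb at 2.09 against 186.3. The higher genes were Anpep, Pdgfb and Smtn, with log2 ratios of 1.03 to 1.05. Erythroid genes were lower in titled KO in 9 of 9 measured (median log2 ratio -3.57; 3 erythroid-like cells against 31) and panendothelial genes higher in 15 of 20; the part of the erythroid cells was not tested. Only 6 titled KO cells read fewer than 10 panendothelial genes. With both sorts limited to cells with 10 or more, 2 of 14 measured members were at least 2-fold lower and 1 higher, against 2.92% and 4.02% of 10635 genes, and Acta2 (log2 ratio 0.97) and Myl9 (0.32) turned from lower to higher.

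Within the Mes sorts contractile genes were read in the same cells. Each cell was thinned to 100000 reads, and Spearman's rho was taken over the thinned cells of Mes and over 86 cells of Mes KO, for 496 pairs of members. Cells of a sort share embryos and library preparation, so rho only describes these cells. Pairs of contractile genes had a median rho of 0.62 in Mes and 0.56 in Mes KO, and contractile with stromal genes 0.18 and 0.11. By the lower of its 2 values the highest pair was Acta2 with Myl9 (0.85 and 0.89), and 48 of 50 Mes cells with Acta2 also had Myl9.

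**Figure D4:**
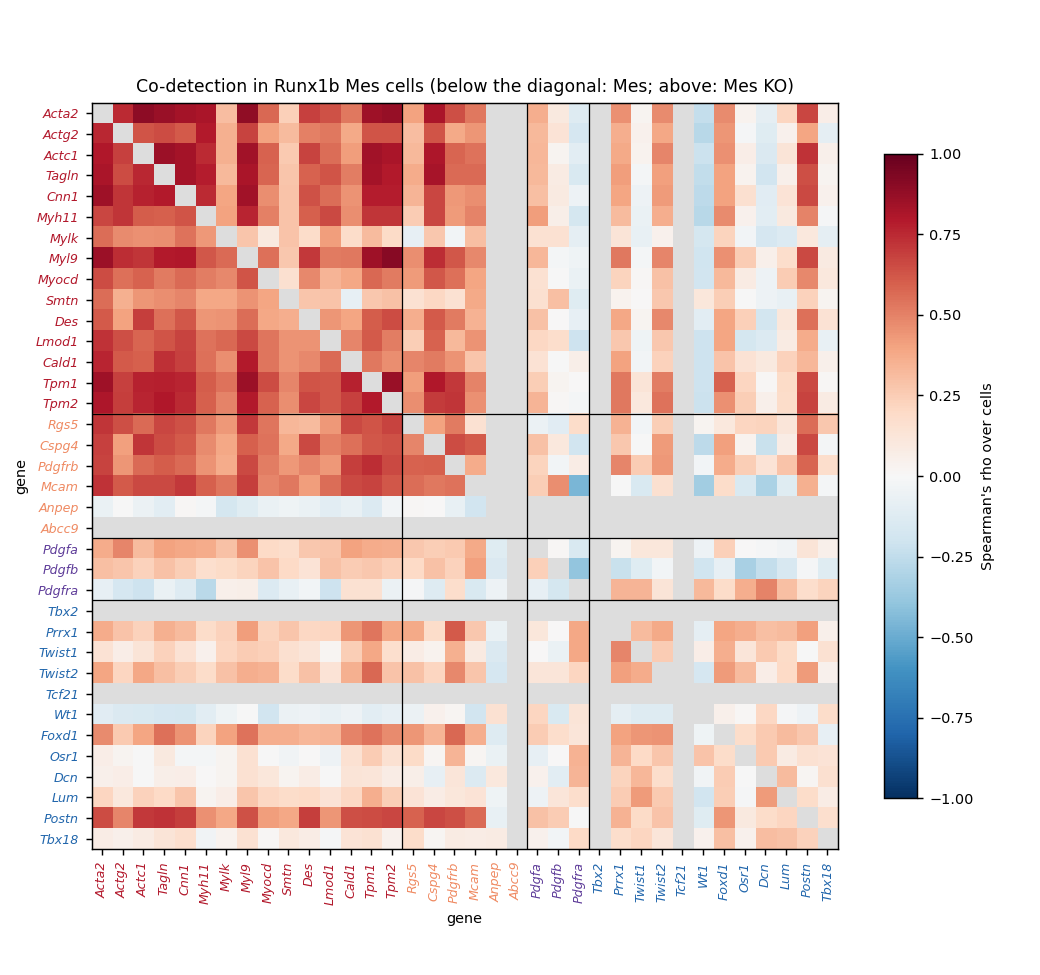
Spearman's rho between genes over cells thinned to 100000 reads, Mes below and Mes KO above the diagonal; grey marks pairs with too few cells. The contractile block has a median rho of 0.62 in Mes and 0.56 in Mes KO, and Pdgfra and Wt1 are pale or blue against it.

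Postn, Cspg4 and Pdgfrb went with the contractile genes. Acta2 with Postn had a rho of 0.66 in Mes and 0.67 in Mes KO, Acta2 with Cspg4 0.69 and 0.82, and Tpm1 with Pdgfrb 0.74 and 0.71. Foxd1, a factor of kidney stroma, also shared cells with Acta2 (0.47 and 0.47).

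Pdgfra and Wt1 did not go with Acta2. Acta2 with Pdgfra had a rho of -0.08 in Mes and -0.13 in Mes KO, and Acta2 with Wt1 -0.11 and -0.23. Pdgfra went with Dcn instead (0.34 and 0.50), and 18 of 19 Mes KO cells with Dcn had Pdgfra. The programs were not exclusive, as 25 of 48 Mes cells with Pdgfra had Acta2 reads.

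HE was tested against Endo over 4 sets (E10.5, E11.5, Runx1b and ACE, with DoublePos as the HE of the ACE set), with 1 sum per sort and the set as a block. Actc1, Prrx1 and Cnn1 rose in HE by edgeR's quasi-likelihood test, and 0 members fell. The test called 1.40% of 14553 genes, and 18 members passed its filter on low counts. A gene scarce in Endo could pass that filter only through HE, and its direction was then set by construction. This holds for Actc1 and Prrx1, with at most 0.0686 and 0.102 CPM in any Endo sum. Cnn1 reached 1.56 CPM in Endo, in the Runx1b set.

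Actc1 stood at 0.0249, 0.0444, 0 and 0.0686 CPM in the Endo sums of the E10.5, E11.5, Runx1b and ACE sets and at 15.6, 39.5, 2042 and 20.4 CPM in the HE sums. The groups did not overlap, and Runx1b HE was by far the highest. The fitted log2 difference (13.27 ± 1.23, edgeR adjusted p = 0.0175) depends on the prior count, since no Endo sum had more than 2 reads. In HE, reads came from 6 of 95, 4 of 40, 42.7% of and 10 of 39 cells, in the same order of sets. Of the Actc1 reads in E11.5 HE 56.1% came from 1 cell, without which the level was 18.2 CPM, and without the top cell of E10.5 HE it was 10.4 CPM.

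Prrx1 stood at 0, 0.0444, 0.102 and 0 CPM in Endo and 2.999, 8.56, 102.4 and 5.87 CPM in HE, also without overlap. Its fitted log2 difference was 9.17 ± 0.84, edgeR adjusted p = 0.0175, again set in part by the prior count. In E11.5 HE 1 cell held 45.8% of the Prrx1 reads, and the level without it was 4.78 CPM. Cnn1 stood at 0.174, 0, 1.56 and 0 CPM in Endo and 3.29, 1.16, 200.8 and 2.82 CPM in HE, higher in HE in 4 of 4 sets although the groups overlap (6.32 ± 0.78, edgeR adjusted p = 0.0340). In E11.5 HE the Cnn1 reads came from 3 of 40 cells, and 98% of them from 1 cell.

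**Figure D5:**
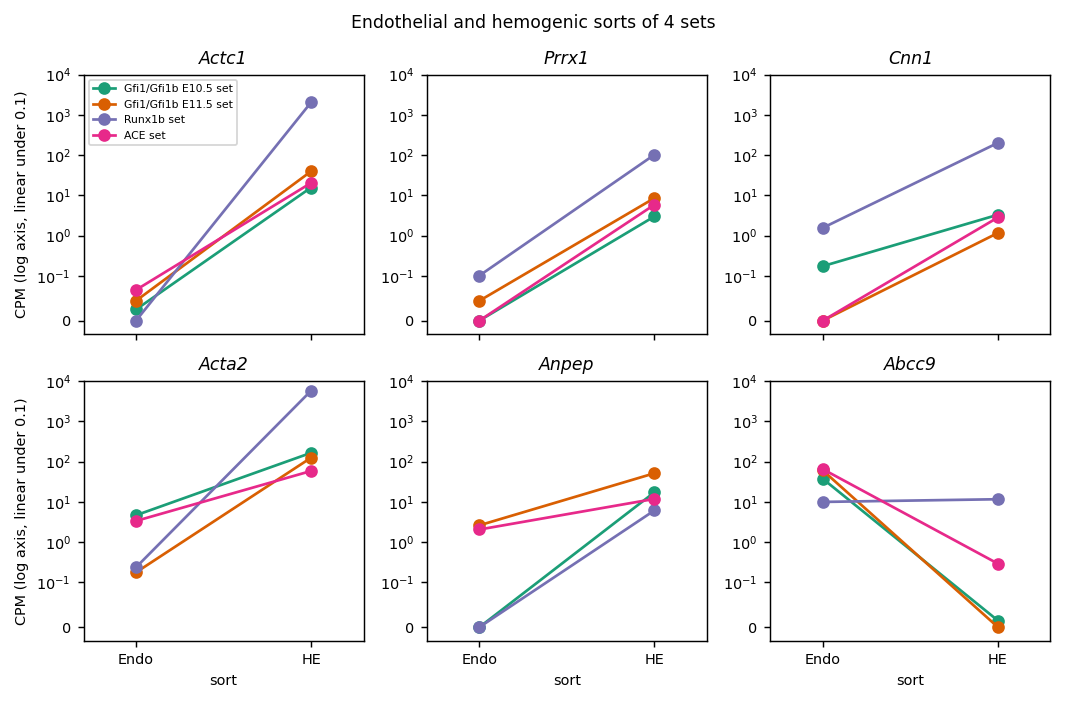
CPM (log axis, linear under 0.1) in the Endo and HE sums of 4 sets, 1 line per set, for the 3 members that passed edgeR's test (top) and 3 that did not (bottom). Acta2 and Anpep are higher in HE in all 4 sets, and Abcc9 is lower in HE in 3 sets, with 9.96 and 11.6 CPM in the Runx1b set.

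Acta2, Anpep and Pdgfra were also tested and higher in HE in 4 of 4 sets without overlap, and none of them passed. Tagln and Myocd showed the same order but failed the filter on low counts and were not tested. The share of all genes without overlap was not counted in this comparison. Acta2 stood at 4.65, 0.178, 0.237 and 3.36 CPM in Endo and 165.1, 124.9, 5768 and 58.4 CPM in HE (7.40 ± 1.96, edgeR adjusted p = 0.133). Of its reads, 43.4% in E10.5 HE and 54.3% in E11.5 HE came from 1 cell each. Anpep had a log2 difference of 5.95 ± 1.88, edgeR adjusted p = 0.174 and Pdgfra of 6.40 ± 2.43, edgeR adjusted p = 0.233.

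Abcc9 had the opposite sign. It stood at 37.3, 60.1, 9.96 and 64.8 CPM in Endo and 0.0146, 0, 11.6 and 0.292 CPM in HE (-8.35 ± 2.90, edgeR adjusted p = 0.203), with a wide gap in 3 sets and none in the Runx1b set. Smtn was lower in HE in 4 of 4 sets (-0.67 ± 0.21, edgeR adjusted p = 0.172). DESeq2, which called 17.8% of 14553 genes in this comparison, called both lower.

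These calls depended on which sets were kept, as did calls over all genes. Without the E10.5, Runx1b or ACE set 0 members passed edgeR's test, against 0.139%, 0.0207% and 0% of all genes tested. In the same order, 2470, 2081 and 1977 genes had an unadjusted p under 0.05. Without the E11.5 set 5 members passed, against 0.895% of genes. With cells limited to at least 10 panendothelial genes, 3.47% of genes passed. Among them were Actc1, Prrx1 and Acta2 (Acta2 edgeR adjusted p = 0.0426), and Cnn1 did not pass (0.172). Markers of other cells moved with this comparison. By edgeR 1 of 10 tested hematopoietic genes rose in HE (unadjusted p under 0.05 for 8; 9 called by DESeq2) and 1 of 4 epithelial genes (unadjusted p under 0.05 for 3; 4 called by DESeq2), and their part was not tested. Of the erythroid genes 5 of 6 tested rose in HE, and their sum was 1.85 to 48.02 CPM in the Endo sums and 13.5 to 145622 CPM in the HE sums. Without erythroid-like cells the log2 difference was 13.38 for Actc1 and 9.19 for Prrx1.

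ACE SinglePos cells had more contractile RNA than ACE Endo cells. Of 13 measured members 8 stood at least 2-fold higher, against 19.3% of 10826 genes, and 9 stood at least 2-fold higher or lower, against 32.3% of them. Acta2 stood at 452 against 3.36 CPM, Myl9 at 224.7 against 19.8, Tpm2 at 22.7 against 0.823, and Mcam at 673 against 220.1. Abcc9 was the lower gene (1.81 against 64.8 CPM). Of the higher genes, Acta2, Tpm2, Actc1 (0.0686 CPM in Endo) and Anpep (2.06) were under 5 CPM in Endo. They were measured only through SinglePos, and were then higher there by construction. Acta2 was read in 34.5% of SinglePos and 35.7% of the 14 Endo cells, so the shares lay close together and the levels far apart, and 36.03% of the SinglePos reads came from 1 cell.

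Other mural genes were scarce in the ACE sorts. Cspg4 had 0 reads in SinglePos and DoublePos, Myh11 stood at 0.611 and 0.0973 CPM, and Rgs5 at 3.25 and 1.49 CPM. Pdgfrb stood at 12.01 CPM in 6.90% of SinglePos cells and had no read in the 39 DoublePos cells. A count of 0 leaves room for up to 3 cells of 39 with a read (7.69%), a limit on cells with a read and not on cells that express the gene. Contractile pairs had a median rho of 0.10 over 97 SinglePos cells. The 25 SinglePos cells with fewer than 10 panendothelial genes stood at 30.9 CPM of Acta2 and the other 91 at 475 CPM, so here most Acta2 lay in the cells with many endothelial genes.

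DoublePos cells stood lower in contractile RNA than SinglePos cells. Of 15 measured members 4 stood at least 2-fold lower and 0 higher, against 4.69% and 5.30% of 10775 genes. They were Acta2 (58.4 against 452 CPM), Myl9 (58.7 against 224.7), Pdgfa (5.97 against 18.3) and Tpm2 (10.1 against 22.7). Acta2 was read in 58.97% of DoublePos cells (exact Clopper-Pearson interval 42.1 to 74.4%; SinglePos 25.9 to 43.9%). Thinned to 100000 reads, the shares were 48.6% and 35.1%.

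Between E10.5 EHT and E10.5 HE, 3 of 14 measured members stood at least 2-fold higher and 3 lower, against 12.1% and 10.6% of 10767 genes. Lower in EHT were Mcam (11.8 against 196.3 CPM), Cald1 (23.6 against 267.7) and Pdgfra (0.437 against 12.4). Higher were Postn (19.8 against 2.87 CPM), Tpm2 (19.5 against 5.87) and Actc1 (80.7 against 15.6). Of the Actc1 reads in EHT, 93.1% came from 1 cell, without which the level was 5.73 CPM. Acta2 stood at 266.7 and 165.1 CPM and was read in 56.1% and 31.6% of cells. Markers of other cells differed too. Erythroid genes were lower in EHT in 9 of 9 measured (median log2 ratio -9.48). Hematopoietic genes were higher in 9 of 11 and panendothelial genes lower in 10 of 20. The part of these cells was not tested.

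In the HE sort labelled Gfi1/Gfi1b KO, against HE of the same stage, 2 of 14 measured members stood at least 2-fold higher and 3 lower, against 7.86% and 7.84% of 10570 genes. Acta2 stood at 158.2 and 165.1 CPM. Lower were Pdgfa (0 against 6.19 CPM), Pdgfra (0.448 against 12.4) and Cald1 (85.9 against 267.7), and higher were Prrx1 (11.3 against 2.999) and Tpm2 (16.6 against 5.87). Erythroid genes were lower in the sort labelled KO in 9 of 9 measured (median log2 ratio -2.35). Panendothelial genes were lower in 3 of 20, and hematopoietic genes higher in 4 of 9 and lower in 1. The part of these cells was not tested.

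Other genes of the same programs were read beside the members. Of 32 other contractile genes, 11 of 28 measured were at least 2-fold higher and 1 lower in Runx1b HE than in Runx1b Endo. Of 16 other pericyte genes 8 of 12 were higher and 0 lower, and of 26 other stromal genes 12 of 19 were higher and 2 lower. Over all 10952 genes measured the shares were 14.2% higher and 9.88% lower. The highest of each list in Mes were Actb (7176 CPM), a cytoplasmic actin, Nes (157.5 CPM), an intermediate filament gene, and the collagen gene Col3a1 (2224 CPM). In the test of HE against Endo edgeR called 0 of the 28, 13 and 19 genes tested, against 1.40% of 14553 genes. An unadjusted edgeR p under 0.05 was found for 7, 4 and 9. DESeq2 called 3, 5 and 7 of them higher and 5, 2 and 3 lower in HE, against 17.8% of 14553 genes. In Mes against HE-gate cells with at least 10 panendothelial genes, 3 of 31, 2 of 15 and 9 of 26 rose by edgeR. Over all 17500 genes tested, 330 rose.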

How the data were processed

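Raw read counts per gene were deposited by the authors in 2 tables of single cells, of 1288 and 169 cells. The submitters' processing notes name STAR 2.4.2a, HTSeq 0.6.1p1, R 3.6.2, bcl2fastq and GRCm38, with strand setting and annotation release not given in the sources used here. Only the 36131 genes whole in both tables were analysed; 13454 of the ACE table's 49585 genes, with 10.1% of its reads, were not used. The 5 largest sorts held 277 (titled KO), 262 (Runx1b HE), 116 (SinglePos), 107 (Mes) and 95 cells. Sums of a sort held 14577594 to 199887490 reads. No doublet caller was run and cells were not clustered. Nothing shows that sums come from separate embryos, so p-values measure the spread between sums, which may be technical.

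Members and gene lists were chosen with earlier results of these data known. All 36 members could be named, with the 3 highest genes in Mes of each other list and the highest markers; Runx1 was added as the targeted gene. Levels have exact Poisson and shares exact Clopper-Pearson intervals (95%), or for a share of 0 the limit of 3 counts, which cover counting error only, since these reads carry no molecular identifiers. edgeR 4.0.16 (R 4.3.3; filterByExpr, TMM, quasi-likelihood F-test, Benjamini-Hochberg, threshold 0.05) gave the main tests on sums, checked on simulated counts; standard errors are approximate, from the F statistic. DESeq2 1.42.0 was an alternative. Further alternatives left out each sum or set, shallow cells, erythroid-like cells, cells with fewer than 10 of 20 panendothelial genes, misspelt titles, the count filter or the block, or thinned cells to 100000 reads. Exon lengths and overlaps are from GENCODE M21.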

Additional observations from a re-analysis of the deposited data

Results flagged for a closer look

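In groups of 4 sums, members with at least 5 CPM were looked at for a sum far from the other 3 (44 looks); chance gives about 1 in 20. Among the Endo sums, Mylk stood apart in E11.5 Endo at 48.9 CPM and Myl9 in E10.5 Endo at 64.5 CPM. Among the HE sums, Runx1b HE stood above the others for Myh11 (173.8 CPM), Des (46.1 CPM) and Lum (51.99 CPM), and ACE DoublePos stood below them for Twist1 (0.551 CPM).

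Tpm2 had opposite signs between sets. Its HE minus Endo log2 ratio was 6.55 in the Runx1b set and -1.88 in the Gfi1/Gfi1b E11.5 set, and the difference between the sets was not tested.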

How the results depend on the processing

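For HE against Endo, 1.40% of genes and 3 members passed. The percentage was 17.8 with DESeq2, 6.67 with thinned cells, 3.47 with at least 10 panendothelial genes and 3.04 with no replicate block (the sort set is the block; it pairs sorts of a line and stage, not embryos). Members passing were 9 with DESeq2, 5 with no filter on low counts and 1 with titled E11.5 cells as a further set. Leaving out 1 set gave 0 to 0.895% of genes and 0 to 5 members. For Mes against HE, 0 passed; DESeq2 gave 9% of genes and 6 members, the limit to HE-gate cells with at least 10 panendothelial genes 4.31% and 17, and the replicate block by title 0. The same limit gave 6 members higher in Runx1b HE than in Endo, and 1 higher and 2 lower in titled KO than in Runx1b HE, with Acta2 at 0.97 and Myl9 at 0.32 instead of -3.77 and -2.86. With the mean of per-cell CPM, 4 members were lower in Mes than in Endo, 1 was higher and 2 lower in Mes KO than in Mes, 0 were higher in titled KO (also 0 with thinned cells), and Myocd turned to -0.65 in Runx1b HE and -1.67 in Mes against Endo, where the 1 Myocd read lies in a very shallow cell. With 3 reads enough to be measured, 1 member was higher in Mes KO; SinglePos against Endo gave 22 higher and 2 lower of 34 (24.3% and 19.7% of genes), DoublePos against SinglePos 4 and 18 of 35 (11.4% and 15.6%), EHT against HE 7 and 11 of 30 (21.8% and 16.8%), and Gfi1/Gfi1b KO against HE 9 and 9 of 29 (18.5% and 15.2%). The other 88 recomputed counts stayed within 1.5 times. Beyond these constructions the cause was not tested. The ACE Endo sum rests on 14 cells.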
